A study of Mus musculus with 6 samples.

Results

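The genes described here encode the proteins of the cytosolic and the mitochondrial ribosome, measured by RNA-seq in regulatory T (Treg) cells with and without transketolase. They were chosen by symbol alone, from names beginning Rpl or Rps and a digit, from Rplp0, Rplp1, Rplp2 and Rpsa, and from names beginning Mrpl or Mrps and a digit. Names beginning Rps6k, which include the S6 kinases, and names marked as pseudogenes ("-ps") were left out, which removed 13 rows. The rule found 166 of the 18493 genes in the table, 88 cytosolic and 78 mitochondrial. The cytosolic set held 54 genes of the large subunit, 33 of the small subunit and Rps19bp1, which matches by name but encodes a binding partner of a ribosomal protein. The mitochondrial set held 49 genes of the large and 29 of the small subunit. One of the latter by name, Mrps36, is now assigned to the alpha-ketoglutarate dehydrogenase complex.

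Cytosolic ribosomes translate nearly all messages of a cell, and their subunits are built in the nucleolus from rRNA and one copy of most of these proteins. Mitochondrial ribosomes translate the few messages of the mitochondrial genome, which encode core proteins of the respiratory chain, and all of their proteins are made from nuclear genes and imported. In T cells both kinds of ribosome are known to be made in large numbers when a resting cell is activated. Many messages of cytosolic ribosomal proteins begin with a C followed by a run of pyrimidines, the terminal oligopyrimidine (TOP) motif, through which mTORC1 and Larp1 control their translation. RNA-seq measures the amount of message and not how much of it is translated.

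The study compared CD4+CD25+YFP+ Treg cells from spleen and lymph node of 7-week-old female C57BL/6 mice, 3 labelled WT and 3 labelled cKO, which its design text calls chimeric. The WT mice were Foxp3cre/+. The cKO mice carried the same Foxp3cre/+ allele together with TKTfl/fl, which deletes Tkt, the gene of transketolase, an enzyme of the non-oxidative pentose phosphate pathway, in cells that express Cre. All 6 libraries therefore come from cells with Cre and YFP, and Foxp3 is X-linked, so that these females are mosaics and the sort takes the cells in which the Cre allele is active. No treatment was given. The floxed exons are not given in the labels, nor whether a library pools animals, so that a p-value here reflects the spread among 6 libraries that may not each be 1 animal.

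The libraries held 17180577 to 18215168 estimated reads. Tkt stood at 126, 97.1 and 121 CPM (reads scaled to library size) in WT and at 52.5, 44.8 and 31.9 CPM in cKO. Every cKO library was thus below every WT library. Its log2 fold change (cKO minus WT) was -1.41, with an adjusted p of 0.0516 in edgeR's test. The T cell and Treg markers of the sort were present throughout, with Foxp3 between 458 and 686 CPM. Summed erythroid markers stood at 197 CPM in cKO1 and between 0.277 and 5.56 CPM in the other 5 libraries, and no marker in the table from any of the 8 cell type lists was at 0 in all libraries. WT2 and cKO1 were the highest libraries on the first principal component, which held 36.1% of the variance. In bulk RNA, fewer cells of a type and less RNA per cell cannot be told apart.

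The starts of 4 members are shown because the promoters of both sets are compared by the pyrimidines at this place. Each line gives 40 bases before and 20 bases from the gene start in RefSeq (GRCm38.p6, the assembly of mm10), 5′ to 3′ on the strand of the gene. Capitals mark runs of at least 5 pyrimidines (C or T) within 10 bases on either side of the start. The positions are chr4:86857348-86857407 (minus strand) for Rps6, chr7:141447611-141447670 (plus strand) for Rplp2, chr7:28741802-28741861 (minus strand) for Mrps12 and chr11:120484597-120484656 (plus strand) for Mrpl12.
Rps6: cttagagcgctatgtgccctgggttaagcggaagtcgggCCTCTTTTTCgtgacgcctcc
Rplp2: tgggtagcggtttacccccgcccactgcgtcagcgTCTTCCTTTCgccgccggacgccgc
Mrps12: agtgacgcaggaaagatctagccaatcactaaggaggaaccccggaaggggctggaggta
Mrpl12: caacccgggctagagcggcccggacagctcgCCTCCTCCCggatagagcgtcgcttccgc
Rps6 and Rplp2 have a pyrimidine run across the start itself. In Mrpl12 the run ends just before the start, and Mrps12 has none there.

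Promoters of 106 members, 58 cytosolic and 48 mitochondrial, were matched in the RefSeq table at the outermost start of the gene. A C followed by 4 pyrimidines at the start was found in 13 cytosolic promoters (22.4%), in 0 mitochondrial promoters and in 2.10% of all 10582 protein-coding promoters of the same length. The cytosolic ones were Rpl14, Rpl15, Rpl28, Rpl32l, Rpl35, Rplp2, Rps10, Rps15a, Rps18, Rps21, Rps27, Rps27rt and Rps6. A run of 8 pyrimidines within 10 bases of the start was found in 25.9% of cytosolic, 8.33% of mitochondrial and 7.14% of all promoters. The annotated start of a gene can differ by a few bases from the one in use, so a start with no match says only that these letters were not in this window.

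Other letters were searched on both strands over 300 bases, from 250 before to 50 after the start. The core of ETS factor sites, CCGGAA, was found in 46.6% of cytosolic and 58.3% of mitochondrial promoters and in 16.9% of all promoters. The NRF1 motif, GCGCA followed by any base (N) and GCGC, named for a factor that is known to drive nuclear genes of mitochondrial proteins, was found in 8.62% of cytosolic, 18.8% of mitochondrial and 5.82% of all promoters. The YY1 motif AAGATGG was found in 15.5%, 22.9% and 6.62%, and the SP1 core GGGCGG in 60.3%, 56.3% and 40.5%. TATAAA was found in 12.1%, 6.25% and 16.9%, and the E-box CACGTG, bound by Myc among others, in 6.90%, 6.25% and 7.44%. None of these motifs contains another, but neighbouring matches can share end bases. These shares describe letters and not binding.

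**Figure D1:**
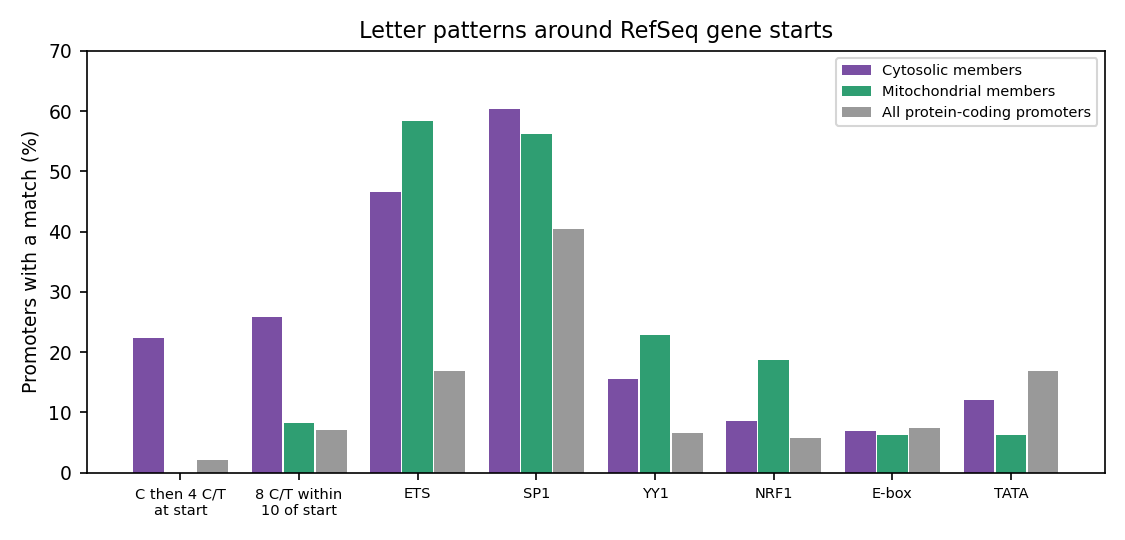
Share of promoters (y axis, percent) that hold each letter pattern (x axis), for 58 cytosolic members, 48 mitochondrial members and all 10582 protein-coding promoters in the RefSeq table. The start pattern of a C and 4 pyrimidines is at 22.4% in the cytosolic and 0% in the mitochondrial members, whereas the ETS core is high in both, at 46.6% and 58.3%.

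Cytosolic ribosomal protein messages were among the most abundant of the cell. Per length, the median tested cytosolic member stood at 1038 FPKM (fragments scaled by length and depth, as deposited), the median mitochondrial member at 20.7 FPKM and the median of all 12887 tested genes at 9.50 FPKM. Of 85 tested cytosolic members, 58 were above 500 FPKM, compared with 132 of all tested genes. Of 78 mitochondrial members, 75 were under 50 FPKM. The 88 cytosolic members took 6.09% to 6.21% of the reads of a WT library and 5.75% to 6.60% of those of a cKO library.

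Rps27, a zinc finger protein of the small subunit, was the highest cytosolic member at 4592 FPKM, followed by Rps24 at 3372 FPKM and Rpl12 at 2649 FPKM. The lowest tested were Rpl3l, the muscle paralog of Rpl3, at 0.518 FPKM, Rps13 at 6.18 FPKM and Rps19bp1 at 8.38 FPKM. The highest mitochondrial members were Mrpl52 at 106 FPKM, Mrpl24 at 77.6 FPKM and Mrpl30 at 66.8 FPKM, and the lowest were Mrpl35 at 4.73 FPKM, Mrpl19 at 4.84 FPKM and Mrpl57 at 5.54 FPKM. Rpl10l, Rpl39l and Rpl32l did not pass the filter on low counts and were not tested. Their highest values were 4, 11 and 4.77 reads in any library.

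Most core subunits are present in one copy per ribosome, but their listed levels were not alike. Of the tested cytosolic members, 10 were under 50 FPKM. These include Rps19bp1, which is no ribosomal protein, and the paralogs Rpl3l, Rps27l and Rpl7l1. Rpl10, a protein that joins the large subunit late in its assembly, was among them at 11.8 FPKM. So was Rps6, the substrate of the S6 kinases, at 47.1 FPKM. Most cytosolic members have processed copies elsewhere in the genome. Among windows of 50 bases along the transcripts of a cytosolic member in GENCODE, a median of 35.8% also occurred in another gene, against 2.84% for a mitochondrial member. Windows were matched on both strands, and a gene that overlaps the member at its own place counted as another gene. An annotated pseudogene shared such a window with 84 of 88 cytosolic and 33 of 78 mitochondrial members. The share was 73.8% for Rpl10, 84.6% for Rps6 and 33.5% for Rps13. It was 19.7% for Rpl21, which was also low at 30.8 FPKM, and 95.1% for Rpl35, which stood at 1551 FPKM. Of the deposited read values, 82.6% were not whole for cytosolic members, 54.1% for mitochondrial members and 46.0% for all genes. Their levels are therefore uncertain where reads could be divided between copies, and the part of this in the low levels was not tested.

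No member of either set passed the test, and the middle of each set lay close to that of all genes. The tested cytosolic members had a median log2 fold change (cKO minus WT) of 0.04 and the mitochondrial members one of 0.01, beside 0.004 for all genes tested. None of 85 cytosolic and none of 78 mitochondrial members was called at an adjusted p under 0.05 in edgeR's quasi-likelihood test with Benjamini-Hochberg adjustment. Over all genes that rule called 27 (0.21%), of which 1 was higher in cKO (0.00776%) and 26 were lower (0.202%). It did not call Tkt, the deleted gene (edgeR adjusted p = 0.0516), so a gene that was not called may still differ. At an unadjusted p under 0.05, 5 cytosolic members (5.88%) and 2 mitochondrial members (2.56%) passed, fewer in share than the 7.69% of all genes. limma-voom also called 0 in each set, and 19 of all genes. In it 4 cytosolic (4.71%) and 2 mitochondrial members (2.56%) had an unadjusted p under 0.05, compared with 7.88% of all genes. DESeq2 called 1 cytosolic and 0 mitochondrial members, with 6 (6.82%) and 2 (2.56%) at an unadjusted p under 0.05, compared with 4.76% of all genes and 171 genes called. DESeq2's shares were taken over all genes in the table with no low-count filter, and edgeR's over the genes that passed it. DESeq2's share of all genes thus includes genes too low for edgeR's test, so the methods cannot be compared by it. The cytosolic share was below that of all genes in edgeR's fit. It was above that of all genes in edgeR's fits without WT2 (15.3% against 10.1%) and without cKO1 (7.06% against 6.45%). In edgeR's fits without WT1, WT3, cKO2 or cKO3, and with the replicate number as a block, the cytosolic share was again below. WT2 held the highest summed cytosolic level of the WT libraries and cKO1 the lowest of the cKO libraries. Leaving out either had to raise the difference of that sum, so the higher shares are no test of a difference.

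The intervals were narrow enough to bound most members. The 95% interval of the log2 fold change lay within -0.5 and 0.5 for 72 of 85 cytosolic and 72 of 78 mitochondrial members, and within -1 and 1 for 80 and 78 of them. The median standard error was 0.08 for cytosolic and 0.11 for mitochondrial members, against 0.13 for all genes. Fitted changes ran from -0.22 to 0.93 in the cytosolic set and from -0.26 to 0.39 in the mitochondrial set. A larger share of cytosolic members had a log2 fold change above 0 (67 of 85, 78.8%) than of all genes (51.4%), with 49 of 78 in the mitochondrial set. Members vary together between libraries, so that these signs are not independent. The medians were 0.03 for the large and 0.05 for the small cytosolic subunit, and 0.007 and 0.04 for the large and small mitochondrial subunit.

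**Figure D2:**
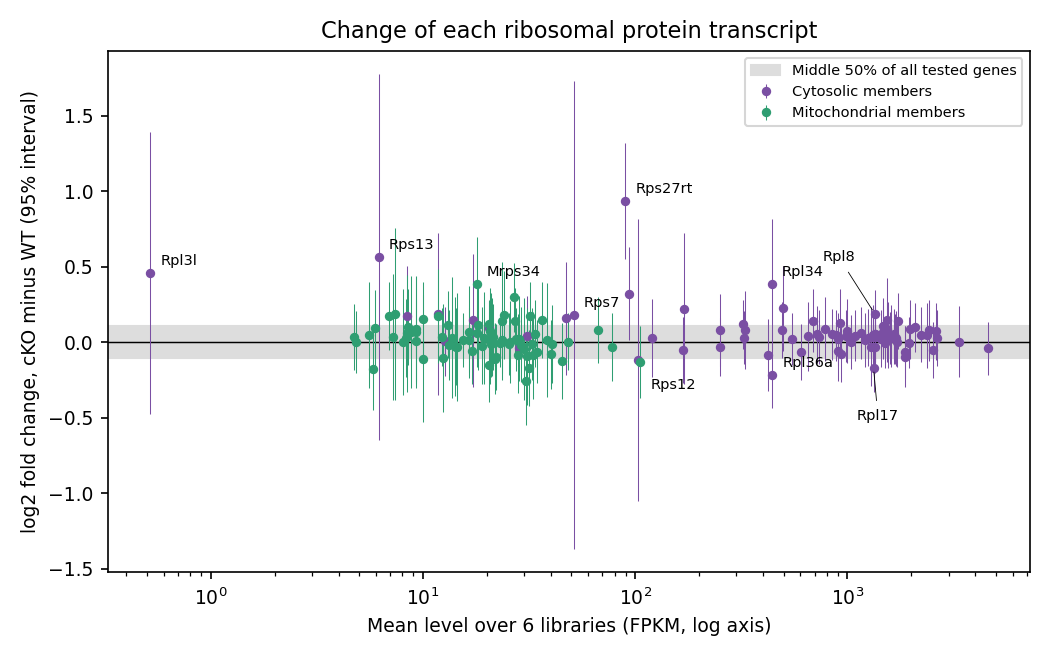
Each point is a tested member, with its mean deposited level over 6 libraries on the x axis (FPKM, log scale), its fitted log2 fold change, cKO minus WT, on the y axis, and bars for its 95% interval. The grey band holds the middle 50% of all tested genes. Cytosolic members sit mostly above 500 FPKM and mitochondrial members below 50 FPKM, and Rps27rt at 0.93 lies apart from the rest.

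The summed level of a set shows the same at the scale of a library. The cytosolic members together stood at 60056, 63841 and 60355 CPM in WT and at 59258, 65553 and 64010 CPM in cKO. The groups overlapped, with cKO1 the lowest and cKO2 the highest of the 6 libraries. The means were 61418 ± 2104 CPM and 62941 ± 3281 CPM (SD, n = 3), a difference of 2.48% that is smaller than the SD of either group.

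The mitochondrial members summed to 1865, 1847 and 1782 CPM in WT and to 1750, 1940 and 1844 CPM in cKO. Here too cKO1 was the lowest and cKO2 the highest library. The means were 1832 ± 43.5 CPM and 1845 ± 95.3 CPM (SD, n = 3), which differ by 0.711%.

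The order of the libraries was common to many members. cKO1 was the lowest of the 6 libraries for 34 of 85 cytosolic members (40.0%) and 31 of 78 mitochondrial members (39.7%), compared with 20.4% of all genes. cKO2 was the highest for 33 cytosolic (38.8%) and 27 mitochondrial members (34.6%), compared with 13.0% of all genes. The range of the cytosolic sum inside the cKO group, from 59258 to 65553 CPM, was therefore wider than the difference between the group means. cKO1 is also the library with 197 CPM of erythroid markers, whose part in its ribosomal protein level was not tested.

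**Figure D3:**
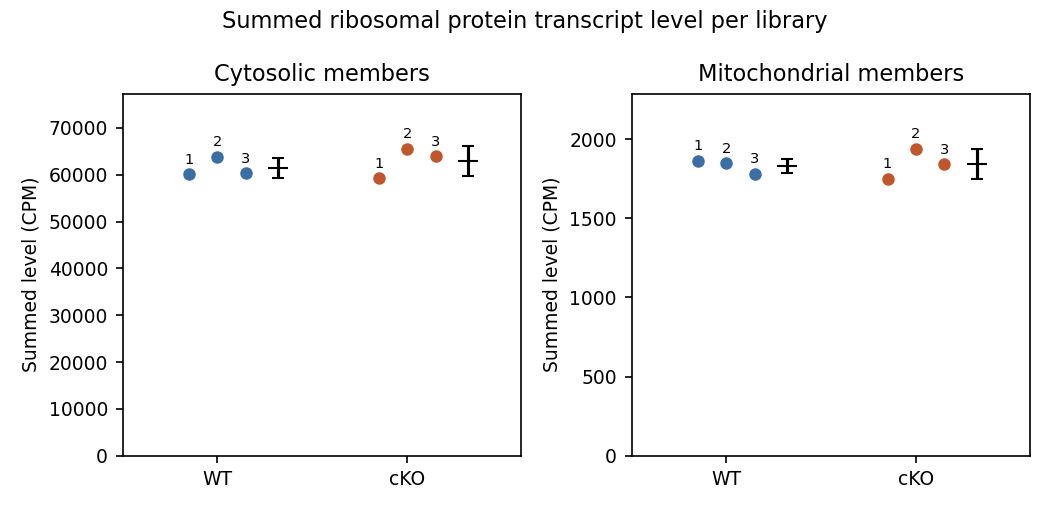
Summed level (y axis, CPM) of the cytosolic members, left, and the mitochondrial members, right, in each library, numbered by replicate, with the group mean and SD as a bar (n = 3). The groups overlap in both sets, and cKO1 is the lowest and cKO2 the highest library in each.

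The cytosolic result depended on WT2 and cKO1. WT2 held the highest cytosolic sum of the WT libraries and cKO1 the lowest of the cKO libraries. Leaving out both therefore had to raise the difference of the sum, so the cytosolic values below are no test of a difference. Without both, in a comparison chosen after their position on the first principal component was known, the cytosolic sum was 7.68% higher in cKO and the median log2 fold change was 0.11. In that fit 34 of 85 cytosolic members (40.0%) had an unadjusted p under 0.05, 32 of them higher in cKO. The share of all genes was 11.4%. There edgeR called 2 cytosolic members, Rps27rt and Rpl10a, and 71 of all genes, compared with 27 in the main fit. Rpl10a stood at 200 CPM in WT2, which was left out, and at 115.5 and 115.8 CPM in WT1 and WT3. It stood at 179 CPM in cKO1, also left out, and at 166 and 158 CPM in cKO2 and cKO3. Of its windows, 62.6% were shared with other genes. The mitochondrial set had 4 members with an unadjusted p under 0.05, a sum 3.82% higher and 0 calls. Over the 4 libraries of that fit, summed stromal markers stood at 2.94 and 4.06 CPM in WT1 and WT3 and at 15.2 and 20.3 CPM in cKO2 and cKO3. Summed myeloid markers stood at 68.4 and 69.5 CPM in WT1 and WT3 and at 138.5 and 73.2 CPM in cKO2 and cKO3, so that cKO2 was the highest of all 6 libraries in these markers as well as in both ribosomal sums. The part of these markers in the result was not tested. Without cKO1 alone the cytosolic sum was 5.52% higher, in a fit that called 0 members and also 0 of all genes, and without cKO2 alone 0.117% higher.

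The balance between the subunits differed little between libraries. The ratio of the summed large to the summed small subunit CPM was 1.39 in each WT library and 1.39, 1.35 and 1.37 in cKO1 to cKO3 for the cytosolic ribosome. For the mitochondrial ribosome it was 1.89, 1.92 and 1.87 in WT and 1.83, 1.83 and 1.87 in cKO. The means of the latter were 1.90 ± 0.0256 and 1.85 ± 0.0247 (SD, n = 3), and WT3 and cKO3 overlapped. The sum of cytosolic over mitochondrial members ran from 32.2 to 34.6 in WT and from 33.8 to 34.7 in cKO.

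Few members separated the groups completely. In 5 cytosolic members, Rps27rt, Rpl8, Rps9, Rps20 and Rpl7l1, every cKO library was above every WT library, which is 5.88% of the 85, against 6.1% of all genes. In 2, Rpl17 and Rpl36a, every cKO library was below, which is 2.35% against 8.12%. In the mitochondrial set 6 were above (7.69%), namely Mrps24, Mrps34, Mrpl50, Mrps17, Mrps10 and Mrps33, and 0 were below. Of these 6, 5 belong to the small subunit, which is 17.2% of its 29 genes.

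Rps27rt had the largest difference. It is an intronless copy of Rps27 on chromosome 9, and its reads are hard to assign. It stood at 20.1, 26.7 and 17.0 CPM in WT and at 39.2, 38.1 and 44.3 CPM in cKO. All cKO libraries were above all WT libraries. The means were 21.2 ± 4.96 and 40.6 ± 3.32 CPM (SD, n = 3). Its log2 fold change was 0.93 ± 0.16 (SE), with an unadjusted p of 0.000654 and an adjusted p of 0.1003 in edgeR's test, so that it was not called. Over 18 alternatives its adjusted p ran from 0.000101 with DESeq2 to 0.457. It was below 0.05 with DESeq2, without WT2 and without WT2 and cKO1.

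The coding sequence is shown because it bears on which gene these reads came from. Rps27 has its coding exons at chr3:90212725-90213615 and Rps27rt at chr9:114982453-114982707, both on the minus strand of mm10 in GENCODE. The 255 coding bases of Rps27rt were identical to those of Rps27, so that the first line below stands for both. The second line is Rps27l, a separate paralog that is known as a p53 target, at chr9:66946175-66949357 (plus strand). Capitals mark its 61 bases that differ from Rps27.
Rps27 and Rps27rt: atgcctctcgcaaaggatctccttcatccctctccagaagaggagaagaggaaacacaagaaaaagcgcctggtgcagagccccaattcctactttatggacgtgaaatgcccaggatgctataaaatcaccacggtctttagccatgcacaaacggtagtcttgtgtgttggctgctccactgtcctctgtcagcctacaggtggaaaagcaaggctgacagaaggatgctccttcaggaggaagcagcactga
Rps27l: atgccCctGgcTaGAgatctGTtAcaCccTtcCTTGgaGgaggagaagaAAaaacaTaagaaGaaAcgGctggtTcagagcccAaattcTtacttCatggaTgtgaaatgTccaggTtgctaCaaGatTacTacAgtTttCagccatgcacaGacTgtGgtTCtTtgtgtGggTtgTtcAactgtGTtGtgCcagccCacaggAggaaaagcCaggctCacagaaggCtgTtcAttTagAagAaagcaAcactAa
The longest stretch that Rps27 and Rps27l share without a difference was 11 bases, and their identity was 76.1%. Reads within the coding sequence can thus be told apart between Rps27 and Rps27l, but not between Rps27 and Rps27rt.

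Of all windows of 50 bases in Rps27rt, 91.1% also occurred in another gene. Rps27 itself stood at 1432, 1487 and 1481 CPM in WT and at 1330, 1505 and 1443 CPM in cKO, with overlapping groups and a log2 fold change of -0.04 ± 0.08 (SE; edgeR adjusted p = 0.970). The sum of both stood at 1452, 1514 and 1498 CPM in WT and at 1369, 1543 and 1487 CPM in cKO. Fitted as 1 gene, the sum had a log2 fold change of -0.02 ± 0.08 (SE; edgeR adjusted p = 0.989). The value listed for Rps27rt is therefore a small part of a pool of near-identical reads whose total showed no difference beyond its spread. In every library Rps27rt stood under 88.6 CPM, the SD of the sum among the cKO libraries. A change confined to Rps27rt would be lost in that spread, so the fit of the sum is no test of it. Rps27l averaged 8.33 ± 1.95 CPM in the WT and 9.20 ± 0.791 CPM in the cKO libraries (SD, n = 3), with overlapping groups.

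Rpl37rt, a copy of Rpl37 at chr5:115102922-115110268 in RefSeq, stood at 55.7, 56.6 and 49.4 CPM in WT and at 54.7, 75.9 and 71.7 CPM in cKO. cKO2 and cKO3 were above all WT libraries and cKO1 was among them. Its log2 fold change was 0.32 ± 0.13 (SE; edgeR adjusted p = 0.614). Added to Rpl37, the sum had a log2 fold change of 0.11 ± 0.08 (SE; edgeR adjusted p = 0.866).

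Rpl8, a large-subunit protein near the site of peptide bond formation, shared only 6.30% of its windows with other genes. It stood at 1067, 1029 and 1070 CPM in WT and at 1170, 1236 and 1205 CPM in cKO. The groups did not overlap. The means were 1055 ± 23.0 and 1204 ± 32.9 CPM (SD, n = 3), a log2 fold change of 0.19 ± 0.07 (SE; 95% interval 0.03 to 0.35; edgeR adjusted p = 0.527). Over 19 alternatives the change stayed between 0.17 and 0.21, with adjusted p-values from 0.226 to 0.955. Rpl8 was thus a steady but small difference that did not pass.

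Rpl17 and Rpl36a, also of the large subunit, were the members with every cKO library lower. Rpl17 stood at 1092, 1124 and 1035 CPM in WT and at 962, 973 and 955 CPM in cKO, a log2 fold change of -0.17 ± 0.07 (SE; edgeR adjusted p = 0.614). Rpl36a stood at 220, 201 and 238 CPM in WT and at 176, 200.3 and 189 CPM in cKO, a log2 fold change of -0.22 ± 0.09 (SE; edgeR adjusted p = 0.634). The gap between the groups of Rpl36a was small, between WT2 and cKO2. Its windows were shared with other genes to 85.5%.

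The remaining cytosolic members with low p-values overlapped between the groups or were close to it. Rpl34 stood at 190, 205 and 140.1 CPM in WT and at 194, 221 and 285 CPM in cKO (a log2 fold change of 0.39 ± 0.18 SE, edgeR adjusted p = 0.719). Rpl13 had a log2 fold change of 0.22 ± 0.12 (SE; edgeR adjusted p = 0.781). Rps9, whose groups did not overlap, had one of 0.14 ± 0.08 (SE; edgeR adjusted p = 0.792), and in it WT1 at 1138.3 CPM and cKO1 at 1138.9 CPM were nearly equal.

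**Figure D4:**
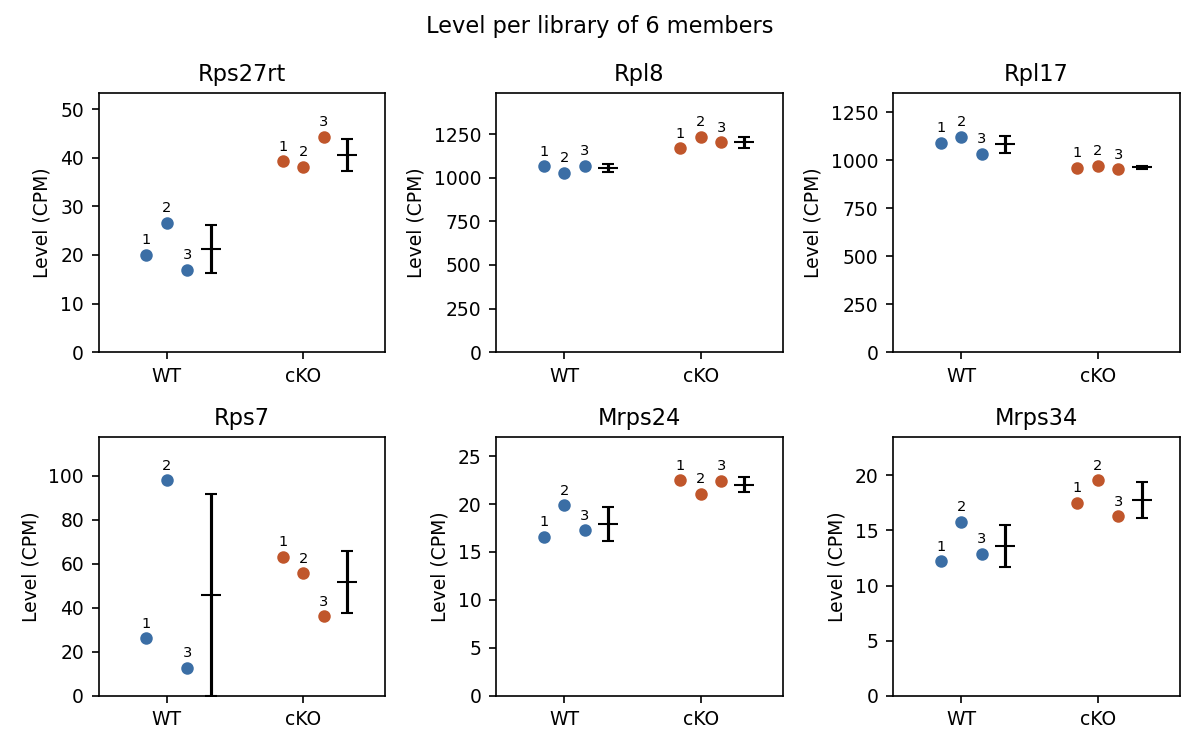
Level (y axis, CPM) of 6 members in each library, numbered by replicate, with the group mean and SD as a bar (n = 3). Rps27rt, Rpl8, Mrps24 and Mrps34 are higher and Rpl17 is lower in every cKO library, and Rps7 runs from 12.7 to 98.1 CPM with no order by group.

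The acidic stalk proteins, which recruit elongation factors to the large subunit, did not pass the test. Rplp0 stood at 2604, 2814 and 2672 CPM in WT and at 2804, 2914 and 2945 CPM in cKO, where WT2 lay just above cKO1. Its log2 fold change was 0.10 ± 0.07 (SE; edgeR adjusted p = 0.848). Those of Rplp1 and Rplp2 were 0.08 ± 0.09 and 0.15 ± 0.12 (SE).

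Several small-subunit proteins have known roles outside translation or are sensors of it. Rps6, phosphorylated by the S6 kinases downstream of mTORC1, stood at 48.8, 69.5 and 57.5 CPM in WT and at 64.9, 76.0 and 55.4 CPM in cKO, with overlapping groups (log2 fold change 0.16 ± 0.16 SE). Rps3, which also binds NF-kappaB in T cells, averaged 1269 ± 52.2 CPM in the WT and 1316 ± 90.6 CPM in the cKO libraries (SD, n = 3). Rpsa, also known as a laminin receptor, had a log2 fold change of 0.04 ± 0.10 (SE). Rps27a, made as a fusion with ubiquitin, had one of 0.08 ± 0.10 (SE). Rps19, known from Diamond-Blackfan anaemia, had one of 0.05 ± 0.07 (SE), and Rps4x one of -0.002 ± 0.07 (SE). Rps19bp1, the member that is no ribosomal protein, had one of 0.17 ± 0.14 (SE). The edgeR adjusted p-values of these 7 members lay between 0.888 and 0.9997.

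Most large-subunit proteins with known roles of their own were as close to 0. Rpl5 and Rpl11, which bind Mdm2 when ribosome assembly is disturbed, had log2 fold changes of 0.03 ± 0.08 and -0.03 ± 0.07 (SE). Their 95% intervals ran from -0.16 to 0.22 and from -0.20 to 0.14. Rpl13a, known for silencing inflammatory messages, had one of -0.07 ± 0.07, Rpl24 one of -0.08 ± 0.08 and Rpl38, known for translation of Hox messages, one of -0.06 ± 0.08 (SE). Rpl10 had one of 0.19 ± 0.23 (SE), the widest of these, at 11.3 to 21.9 CPM in WT and 16.9 to 19.4 CPM in cKO.

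Paralogs were set beside their parents per length. Rpl22, which is needed for the development of alpha-beta T cells, stood at 168 FPKM and its paralog Rpl22l1 at 120.2 FPKM, so that both were well above the median of all genes. Rpl22l1 shared 58.9% of its windows with other genes and Rpl22 5.16%. Their log2 fold changes were -0.05 ± 0.09 and 0.03 ± 0.11 (SE). Rpl36a at 444 FPKM and Rpl36al at 251 FPKM were the other pair with both members high, at 87.9% identity of their coding sequences. In contrast, Rpl7 stood at 1350 FPKM and Rpl7l1 at 20.4 FPKM, Rps27 at 4592 and Rps27l at 17.1 FPKM, and Rpl39 at 602 and Rpl39l at 0.553 FPKM. Rpl3 stood at 999.8 FPKM beside 0.518 FPKM of Rpl3l, and Rpl10 at 11.8 FPKM beside 0.123 FPKM of Rpl10l.

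A few cytosolic members varied strongly between libraries of the same group. Rps7 stood at 26.2, 98.1 and 12.7 CPM in WT and at 63.2, 55.7 and 36.1 CPM in cKO. Rps12 stood at 86.2, 32.7 and 50.8 CPM in WT and at 40.4, 78.3 and 37.8 CPM in cKO. In neither was there an order by group, and their 95% intervals of the log2 fold change ran from -1.37 to 1.73 and from -1.05 to 0.82. In all, 6 tested cytosolic members (Rpl34, Rpl3l, Rps12, Rps13, Rps27rt and Rps7) and 0 mitochondrial members varied at least 2-fold from the lowest to the highest library. The median coefficient of variation within groups (CV, the pooled SD over the mean) was 5.57% for cytosolic and 8.46% for mitochondrial members. Cytosolic members with much shared sequence were found at both low and high spread.

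**Figure D5:**
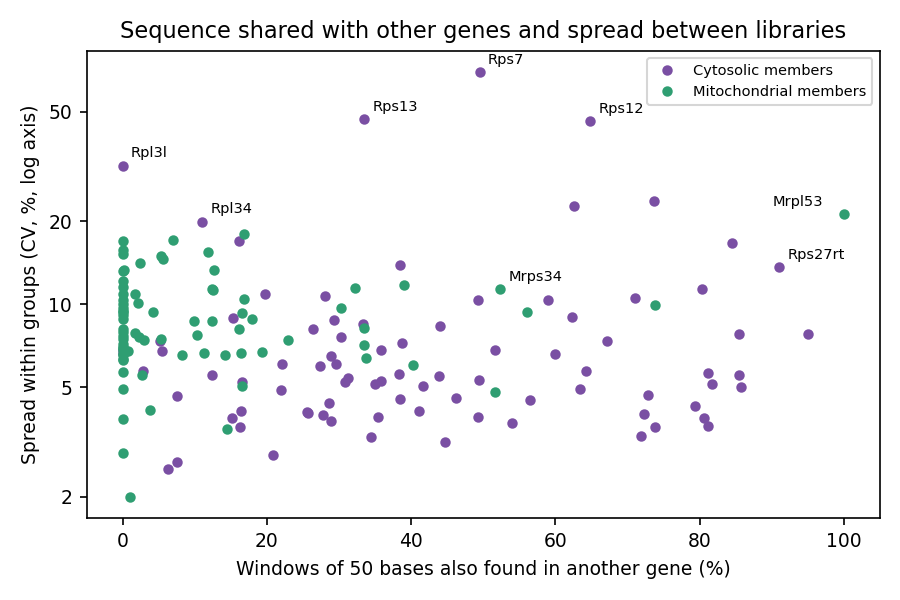
Each point is a tested member, with the share of its windows of 50 bases that also occur in another gene on the x axis (percent) and its spread within groups on the y axis (CV in percent, log scale). Mitochondrial members lie mostly at the left, with a median share of 2.84%, and Rps7, Rps13 and Rps12 have the highest spread, with Rps7 at 69.7%.

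In the mitochondrial set, the small subunit held both members with an unadjusted p under 0.05. Mrps24 stood at 16.6, 19.9 and 17.3 CPM in WT and at 22.5, 21.1 and 22.4 CPM in cKO. Every cKO library was above every WT library. The means were 17.9 ± 1.75 and 22.0 ± 0.795 CPM (SD, n = 3), a log2 fold change of 0.30 ± 0.10 (SE; 95% interval 0.07 to 0.53; edgeR adjusted p = 0.481). None of its windows occurred in another gene.

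Mrps34 stood at 12.2, 15.8 and 12.9 CPM in WT and at 17.5, 19.6 and 16.3 CPM in cKO, again without overlap. The means were 13.6 ± 1.90 and 17.8 ± 1.65 CPM (SD, n = 3), a log2 fold change of 0.39 ± 0.13 (SE; 95% interval 0.08 to 0.69; edgeR adjusted p = 0.503). Over 19 alternatives the log2 fold change ran from 0.25 to 0.38 for Mrps24 and from 0.31 to 0.52 for Mrps34, and neither was called in any of them. Of the windows of Mrps34, 52.4% also occurred in 1 other gene, so that its value may be less certain than that of Mrps24. Whether that gene is a copy or overlaps Mrps34 was not tested.

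Other mitochondrial members differed less. Mrps17 stood at 37.4, 36.2 and 35.4 CPM in WT and at 39.1, 39.8 and 39.5 CPM in cKO, a difference without overlap but with a log2 fold change of only 0.12 ± 0.07 (SE; edgeR adjusted p = 0.789). Mrps6 was lower in mean, at 25.1 ± 2.87 CPM in the WT and 21.0 ± 2.35 CPM in the cKO libraries (SD, n = 3), with overlapping groups (log2 fold change -0.26 ± 0.12 SE, edgeR adjusted p = 0.721). Mrpl50 and Mrpl58 had log2 fold changes of 0.17 ± 0.10 and 0.18 ± 0.10 (SE), and Mrpl13 and Mrps25 of -0.17 ± 0.11 and -0.18 ± 0.11 (SE). Mrps25 shared 73.9% and Mrps6 32.3% of their windows with other genes. Mrpl58, also known as Ict1, releases peptides from stalled mitochondrial ribosomes. Mrpl12, which also binds the mitochondrial RNA polymerase, stood at 29.1, 32.6 and 30.8 CPM in WT and at 29.8, 35.4 and 31.0 CPM in cKO. Mrps12, a protein of the decoding centre, stood at 13.7 ± 1.75 and 14.4 ± 0.675 CPM, and Mrps35 at 23.6 ± 0.858 and 22.1 ± 2.02 CPM in WT and cKO (SD, n = 3).

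Genes that build and use ribosomes were taken from 6 lists, and none of their tested members was called by edgeR, DESeq2 or limma-voom. In edgeR's test 2 of 256 had an unadjusted p under 0.05, a rule that 7.69% of all genes met. A log2 fold change above 0, counted for each list, was found in 51.4% of all genes. Of the 8 tested subunits that the symbol rule does not reach, the lowest p was that of Fau, which encodes a small-subunit protein fused to a ubiquitin-like one. Fau stood at 103.8, 97.9 and 90.4 CPM in WT and at 68.0, 91.4 and 83.9 CPM in cKO, where cKO2 lay above WT3 (log2 fold change -0.26 ± 0.12 SE, edgeR adjusted p = 0.680). Rack1, a signalling scaffold on the small subunit, stood at 1341 ± 59.7 and 1418 ± 48.6 CPM in WT and cKO (SD, n = 3). Dap3, a GTP-binding protein of the small mitochondrial subunit, stood at 72.9 ± 2.06 and 77.4 ± 2.79 CPM. The median log2 fold change of this list was 0.01, with 4 of 8 above 0.

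Among 20 tested genes of RNA polymerase I and its factors, which transcribe rRNA, the median log2 fold change was 0.04, with 11 above 0. Polr1b, the second largest subunit of that polymerase, stood at 40.9 ± 3.23 and 47.3 ± 4.29 CPM in WT and cKO (SD, n = 3; edgeR adjusted p = 0.719), and Rrn3, its initiation factor, at 50.3 ± 3.82 and 55.4 ± 1.87 CPM. Of 100 tested genes of ribosome biogenesis, 60 were above 0, their median was 0.04 and 1 had an unadjusted p under 0.05. That was Urb1, a nucleolar factor of large-subunit assembly, at 37.4, 40.9 and 39.5 CPM in WT and at 45.5, 46.1 and 44.2 CPM in cKO. Its groups did not overlap (log2 fold change 0.20 ± 0.07 SE, edgeR adjusted p = 0.520). Ddx54, a nucleolar helicase, had a log2 fold change of 0.16 ± 0.08 (SE).

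The median over 57 cytosolic translation factors was 0.009, with 31 above 0. Eef2, the elongation factor that moves the ribosome along the message, stood at 3697, 3294 and 3761 CPM in WT and at 3991, 4138 and 3948 CPM in cKO, without overlap (log2 fold change 0.17 ± 0.08 SE, edgeR adjusted p = 0.703). Eef2k, the kinase that inhibits it, stood at 19.5 ± 1.19 and 22.2 ± 0.547 CPM (SD, n = 3; log2 fold change 0.19 ± 0.08 SE, edgeR adjusted p = 0.665).

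Of 35 mitochondrial translation factors and tRNA synthetases, 21 were above 0, with a median of 0.02 and 1 at an unadjusted p under 0.05. That was Lrpprc, which stabilises mitochondrial messages, at 43.9, 50.1 and 48.7 CPM in WT and at 54.7, 53.8 and 58.8 CPM in cKO, without overlap (log2 fold change 0.23 ± 0.08 SE, edgeR adjusted p = 0.533). Ears2, the mitochondrial glutamyl-tRNA synthetase, had one of 0.21 ± 0.09 (SE). Of 36 tested genes of mitoribosome assembly and mitochondrial RNA, 27 were above 0, with a median of 0.04. Dhx30, a helicase of that assembly, stood at 98.2 ± 9.81 and 111.1 ± 7.28 CPM (SD, n = 3; edgeR adjusted p = 0.783), and Nsun4, an rRNA methyltransferase, at 31.7 ± 2.15 and 28.3 ± 2.51 CPM.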

How the data were processed

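RNA was sequenced from 6 libraries, grouped by sample title. Per the submitters' processing notes, which give no role or order, the tools were DESeq2 1.16.1, featureCounts 1.5.0-p3 and HISAT2 2.0.5, and the build was mm10. The authors deposited estimated counts per gene, not normalized, many of them fractional (not within 0.01 of a whole number), by a step not given in the sources used here. The authors also deposited length-scaled values that behave as FPKM, used here for levels between genes.

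Estimated counts were rounded. Genes passing filterByExpr of edgeR 4.0.16 (minimum count 10; R 4.3.3) were scaled by TMM, which gives CPM, and tested with its quasi-likelihood F test (edgeR), group as the only term, two-sided, adjusted by Benjamini-Hochberg over 12887 genes and called under 0.05. The standard error comes from the F statistic. No list was tested as a whole. An exact permutation test of 1 value cannot go below p = 0.1 in this design (3 libraries a group). The code was tested on simulated data.

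Depth was 17180577 to 18215168 estimated reads, and the biological coefficient of variation 16.7%. Alternatives were DESeq2 1.42.0, limma-voom (limma 3.58.1), other scalings, filters and fits, the replicate number as a block, and each library left out. Added after the data were seen were a fit without WT2 and cKO1 and one with Rps27rt and Rpl37rt added to their parents.

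The members and lists were chosen with earlier results of these data known. Named were the 8 members of lowest p in each set, the 3 largest changes at a mean of at least 5 CPM, the 3 highest and 3 lowest levels, fixed paralogs and members with known roles, and of each list the 2 genes of lowest p. Rps7, Rps12, Rps20, Rpl10a, Rpl21, Rpl32l, Rpl37rt's parent Rpl37, Mrps10, Mrps33, Mrps36 and Rack1 were named outside that rule after their values were seen. So were the members with a TOP start. Rps4l was not analysed here, and 1 listed gene is not reported here. Sequences are from GENCODE M21 transcripts and RefSeq promoters (Python 3.11.15, Biopython 1.88). All 166 members matched GENCODE and RefSeq gene positions.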

Additional observations from a re-analysis of the deposited data

How the results depend on the processing

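The number of cytosolic members called was 0 as reported, 1 with DESeq2 (Rps27rt) and 2 without WT2 and cKO1 (Rps27rt and Rpl10a), and ran from 0 to 1 when each library was left out, with the 1 call (Rps27rt) without WT2. Without WT2 and cKO1 the cytosolic median log2 fold change was 0.11 and the cytosolic sum 7.68% higher in cKO. No other setting moved them beyond their spread between libraries, and for the sum the choice of these libraries fixed the direction. Leaving out each library gave cytosolic medians from 0.01 to 0.08 and sums from 0.117% to 5.52%. The same gave mitochondrial medians from -0.02 to 0.05 and sums from -2.14% to 3.35%, so that neither has a settled sign. With the replicate block, edgeR called 0 members of either set, with a lowest adjusted p of 0.300 and 0.602. Deviations of equally numbered libraries correlated at -0.278, 0.0624 and 0.261, so the numbers were not taken as pairs. Over all genes the count of calls ran from 0 to 171 (DESeq2). It was 0 with the replicate block and without WT1, WT3, cKO1, cKO2 or cKO3, so that 0 calls among the members in those fits say nothing about them. Apart from Rps27rt and Rpl10a as given above, no member of either set or of the 6 lists was called in the remaining settings. Reads divided between near-identical copies and 3 libraries a group both limit these values.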

Other observations

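Among the 13 rows that the symbol rule leaves out, the S6 kinases Rps6kb1 and Rps6kb2 were expressed but did not pass edgeR's test. Rps6kb1 averaged 88.3 ± 5.28 CPM in the WT and 85.8 ± 10.7 CPM in the cKO libraries (SD, n = 3; edgeR adjusted p = 0.983). Rps6kb2 stood at 36.3, 36.0 and 33.9 CPM in WT and at 32.4, 32.3 and 31.3 CPM in cKO, with every cKO library lower (log2 fold change -0.15 ± 0.07 SE, edgeR adjusted p = 0.731). Of the 3 rows named as pseudogenes, Rpl31-ps12 was between 0 and 0.478 CPM and too low to be tested. Rpl34-ps1 stood at 207, 293 and 263 CPM in WT and at 234, 253 and 177 CPM in cKO, close to the 140.1 to 285 CPM of Rpl34 itself. Rpl34 was highest in cKO3 and lowest in WT3, and Rpl34-ps1 was lowest in cKO3. However, Rpl34-ps1 was highest in WT2, where Rpl34 stood at 205 CPM, and not in WT3. Rpl14-ps1 stood at 245 ± 33.1 and 215 ± 15.5 CPM in WT and cKO (SD, n = 3). Whether reads of Rpl34 and Rpl34-ps1 were exchanged was not tested.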
